A study of Mus musculus with 4 samples.

Results

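Glucagon-secreting alpha cells of cultured mouse islets were examined across 4 single-cell RNA-seq libraries. Alpha cells release glucagon when blood glucose is low and are held back by high glucose, insulin and somatostatin. They also answer to amino acids such as arginine, and their glucagon raises glucose output by the liver. Their identity is set by transcription factors that include Irx1 and Irx2, and proglucagon, encoded by Gcg, is cut to glucagon by the convertase Pcsk2. Imeglimin is an oral glucose-lowering agent of type 2 diabetes that acts on mitochondria.

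An alpha cell was defined as a barcode with at least 1000 unique molecular identifiers (UMIs, each standing for 1 captured transcript), at least 500 genes and at most 20% of UMIs from mitochondrial genes. At least 5% of its UMIs had to come from Gcg, with under 4% from Ins1 and Ins2 together, under 1% from Sst and under 1% from Ppy. This left 3009 alpha cells of 31792 kept barcodes, from 35707 deposited. The cells were thus selected on their measured hormone shares, so Gcg and the other hormones are given below as descriptions only.

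Islets came from wild-type male C57BL6J mice aged 8 weeks and were cultured for 24 h. The 4 libraries were 1 mM imeglimin at 11.1 mM glucose (768 alpha cells), DMSO vehicle at 11.1 mM glucose (542 alpha cells), 1 mM imeglimin at 3.9 mM glucose (1082 alpha cells) and DMSO vehicle at 3.9 mM glucose (617 alpha cells). Each condition was a single library of Accutase-dispersed cells, and how many mice or islets each held is not given in the sources used here. There is therefore no replicate error and no test between conditions. Every interval below is a 95% exact interval that covers counting error only, and a gene is called higher or lower where its ratio reaches 1.5-fold. Islets in culture have lost their blood supply and nerve input, and these are cells that survived dispersal.

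Whole libraries held between 91245564 and 106092232 UMIs. Alpha cells contributed 4949407 UMIs in imeglimin at 11.1 mM, 3403123 in vehicle at 11.1 mM, 9325549 in imeglimin at 3.9 mM and 6197563 in vehicle at 3.9 mM. The median alpha cell held 5734.5 UMIs in imeglimin and 5677.5 in vehicle at 11.1 mM, and 7150.5 in imeglimin and 7783 in vehicle at 3.9 mM, so the cells were deeper at 3.9 mM. Median mitochondrial shares were 2.69% in imeglimin and 3.09% in vehicle at 11.1 mM, and 2.42% in imeglimin and 3.14% in vehicle at 3.9 mM. Any pair of libraries shared 15 to 24 kept barcode sequences, and at most 1 of those was an alpha cell in both.

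The label was checked against markers that the rule had not used. On a plain CPM scale (UMIs of a gene scaled to a fixed total per library) without the 5 hormone genes of the rule, the alpha cells held 138.8, 177.4, 135.1 and 136 CPM of Irx1 in imeglimin at 11.1 mM, vehicle at 11.1 mM, imeglimin at 3.9 mM and vehicle at 3.9 mM, against 0.432, 0.934, 0.467 and 0.325 CPM in the beta cells of the same libraries. Irx2 lay between 175.8 and 240.5 CPM in alpha cells and between 2.38 and 3.29 CPM in beta cells. Alpha and beta levels of both factors did not overlap in any library. Of 3027 genes at 50 CPM or more in the alpha cells of all libraries, 47 were at least 4-fold and 15 at least 16-fold above beta cells in every library. Among these 15, and named after their values were seen, were Irx1, Sfrp5, Irx2, Gpx3, Id1, Basp1, Ttr, Kcnk3, Gria2, Nxph1, Pyy and Calb1. They include the thyroxine carrier Ttr, the gut hormone peptide YY (Pyy), the potassium channel Kcnk3 and the glutamate receptor subunit Gria2. This is a description, since the hormones that separate the classes travel with these genes.

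Genes of other islet cells were mostly low. The beta-cell factor Mafa lay between 3.43 and 11.8 CPM in alpha cells, on the same hormone-free scale, against 56.65 to 721.5 CPM in beta cells. The glucagon receptor Gcgr lay between 0.245 and 1.93 CPM in alpha cells and between 4.25 and 15.4 CPM in beta cells. Insulin took 0.290%, 0.364%, 0.706% and 0.268% of the UMIs of the median alpha cell in imeglimin at 11.1 mM, vehicle at 11.1 mM, imeglimin at 3.9 mM and vehicle at 3.9 mM. In endothelial cells, which make no insulin, it took 0.341%, 0.270%, 0.829% and 0.261% of all UMIs in the same libraries. The insulin share of the median alpha cell was of the size of that pooled share in endothelial cells. Both classes were limited in insulin by their rules, alpha cells to under 4% and endothelial cells to under 2%. Whether this insulin is background was therefore not tested. The beta-cell marker list summed to 8605.5 and 7141.1 plain CPM in imeglimin and vehicle alpha cells at 11.1 mM, and to 18484.3 and 17697 plain CPM in imeglimin and vehicle alpha cells at 3.9 mM. That list differed mainly between glucose levels. All 8 beta markers were detected in each library, Lepr was the only delta marker at 0 in all libraries, and T-cell and NK-cell markers summed to at most 0.606 CPM. Delta markers, Sst and the retinol carrier Rbp4 among them, summed to 1110, 1024.9, 1929.3 and 1523.7 plain CPM in imeglimin at 11.1 mM, vehicle at 11.1 mM, imeglimin at 3.9 mM and vehicle at 3.9 mM. Markers of pancreatic polypeptide cells, Etv1 among them, summed to 1774.8, 1936.8, 2037.4 and 2142.6 plain CPM in the same libraries. Acinar markers summed to 37.6, 405.8, 23.6 and 34.9 plain CPM, with the high value in vehicle at 11.1 mM.

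Iapp, the amylin gene of beta cells, marked a minority of the cells. It reached 1% of UMIs or more in 14.2% of imeglimin and 3.69% of vehicle alpha cells at 11.1 mM, and in 21.1% of imeglimin and 15.9% of vehicle alpha cells at 3.9 mM. At 3.9 mM, alpha cells with 5 to 10% Gcg held 19773.9 plain CPM of Iapp under imeglimin and 28259.5 under vehicle, whereas those with at least 20% Gcg held 5154.8 under imeglimin and 3330.6 under vehicle. Iapp was thus higher near the lower Gcg limit, and those low-Gcg cells were deep, with medians of 8889 UMIs under imeglimin and 10956 under vehicle. Leaving out the cells with Iapp at 1% or more was an alternative chosen after seeing the data. At the limits themselves, 43 cells had 5 to 6% Gcg and were inside while 29 otherwise matching cells had 4 to 5% and were outside. For insulin 37 cells lay in the last percent inside and 44 in the first percent outside.

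Alpha cells made up a larger share of the kept barcodes under imeglimin at both glucose levels. The share was 9.11% (95% exact interval 8.51 to 9.75) under imeglimin against 7.28% (6.70 to 7.89) under vehicle at 11.1 mM. It was 12.4% (11.7 to 13.1) under imeglimin against 8.61% (7.97 to 9.28) under vehicle at 3.9 mM. These intervals of imeglimin and vehicle did not overlap, but they hold no error between cultures, dispersals or loadings. Without cells with Iapp at 1% or more, the shares at 11.1 mM were 7.82% (7.26 to 8.41) under imeglimin and 7.01% (6.44 to 7.62) under vehicle, and these intervals overlapped. At 3.9 mM they were 9.75% (9.14 to 10.4) under imeglimin and 7.24% (6.65 to 7.87) under vehicle. Beta cells by the matching insulin rule numbered 5704 in imeglimin and 5197 in vehicle at 11.1 mM, and 4853 in imeglimin and 4525 in vehicle at 3.9 mM. With the stricter limits of at least 10% Gcg, under 2% insulin and under 0.5% Sst and Ppy, the shares were 8.24% in imeglimin against 6.41% in vehicle at 11.1 mM and 9.02% in imeglimin against 6.67% in vehicle at 3.9 mM. More alpha cells captured and more alpha cells present cannot be told apart from these counts.

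**Figure D1:**
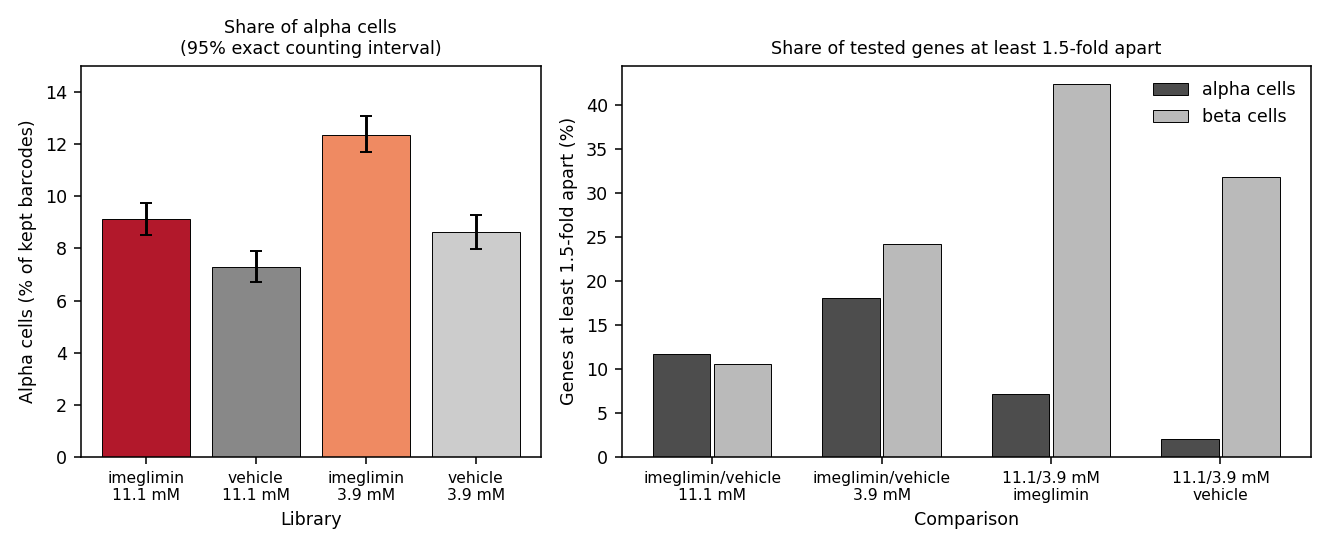
Left, alpha cells as a percentage of kept barcodes in each library with 95% exact counting intervals. Right, the percentage of tested genes at least 1.5-fold apart in alpha and in beta cells for each comparison; alpha cells reach 18.1% with imeglimin at 3.9 mM and 2.07% between glucose levels under vehicle, where beta cells reach 31.8%.

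Alpha cells differed more between imeglimin and vehicle than between glucose levels. UMIs were summed over the alpha cells of a library and put on a TMM-scaled CPM scale, which aligns the bulk of genes between libraries, and genes at 50 CPM or more in either library of a pair were tested. At 11.1 mM, imeglimin alpha cells exceeded vehicle alpha cells by 1.5-fold or more in 213 of 3241 genes (6.57%) and lay that far below them in 167 (5.15%). At 3.9 mM, 378 of 3361 genes (11.2%) were higher and 232 (6.90%) lower. Between glucose levels, 85 of 3264 genes (2.60%) were higher and 149 (4.56%) lower at 11.1 than at 3.9 mM under imeglimin, and 35 of 3145 (1.11%) were higher and 30 (0.954%) lower under vehicle. In beta cells of the same libraries the order was the other way round, with 42.3% of tested genes apart between glucose levels under imeglimin and 31.8% under vehicle, against 10.6% and 24.2% apart between imeglimin and vehicle at 11.1 and 3.9 mM. No test of the difference between the cell types was possible with 1 library per condition.

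The split into higher and lower genes depended on the scaling. With plain CPM, 132 genes were higher and 243 lower at 11.1 mM, 179 higher and 448 lower at 3.9 mM, and 108 higher and 104 lower between glucose levels under imeglimin. Plain CPM moved the median of all tested genes to -0.07 at 11.1 mM and -0.10 at 3.9 mM, against 0.05 and 0.09 on the TMM scale. Ratios within that shift of 0 are not read as directions below.

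The imeglimin comparisons at the 2 glucose levels share no library, and their ratios went together. Among 3080 genes tested at both, 144 (4.68%) were at least 1.5-fold higher at both, which is 74.2% of the 194 genes higher at 11.1 mM and 47.2% of the 305 higher at 3.9 mM. Another 114 (3.70%) were at least 1.5-fold lower at both, or 78.1% of the 146 lower at 11.1 mM and 53.5% of the 213 lower at 3.9 mM. A single gene, Hmox1, was called in opposite directions. Across these genes, which are not independent replicates, Pearson's r of the log2 ratios was 0.85 and Spearman's rho 0.79. Under plain CPM, 76 genes were higher and 195 lower at both.

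**Figure D2:**
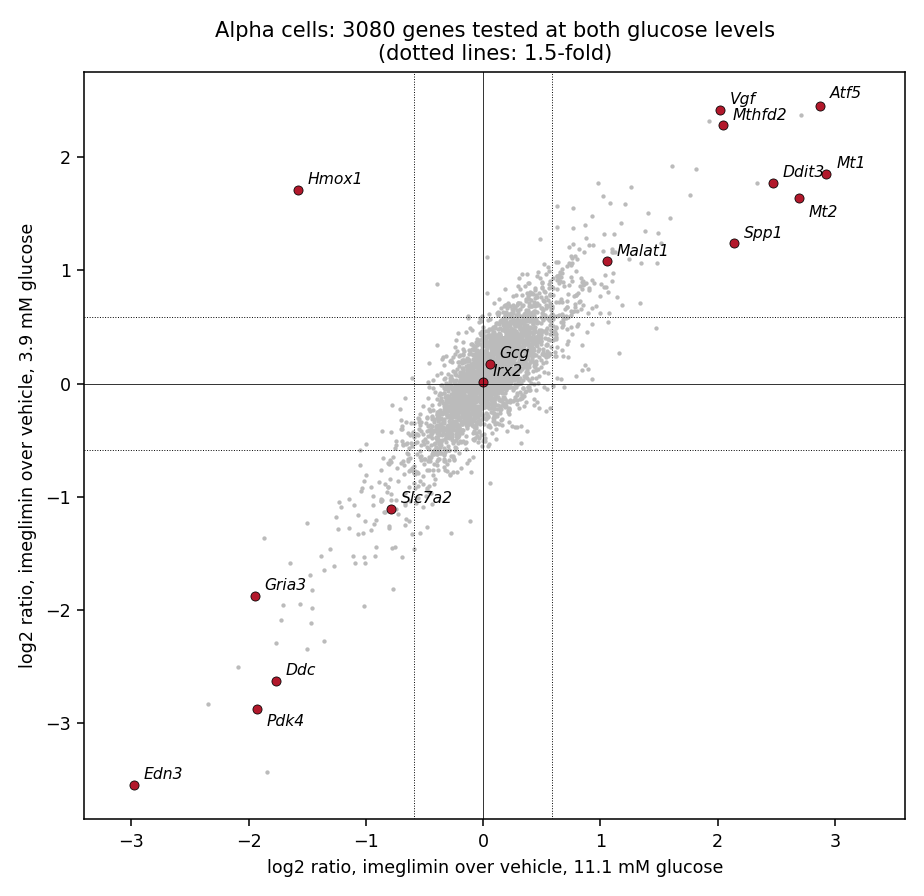
Each point is a gene tested at both glucose levels, with the log2 ratio of imeglimin over vehicle in alpha cells at 11.1 mM on the horizontal axis and at 3.9 mM on the vertical axis; dotted lines mark 1.5-fold. Mt1 (2.93 and 1.85) and Ddit3 (2.47 and 1.77) lie at the upper right, Edn3 (-2.98 and -3.55) at the lower left, Irx2 (0.00 and 0.02) at the centre, and Hmox1 apart from the diagonal.

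The metallothioneins, small proteins that bind zinc and copper, showed some of the largest ratios. Mt1 stood at 4176 and 548.4 TMM-scaled CPM in imeglimin and vehicle alpha cells at 11.1 mM, and at 7117 and 1975 in imeglimin and vehicle alpha cells at 3.9 mM. The log2 ratio of imeglimin over vehicle was 2.93 (2.86 to 2.996) at 11.1 mM and 1.85 (1.82 to 1.88) at 3.9 mM. Mt2 stood at 1035 CPM under imeglimin and 160 CPM under vehicle at 11.1 mM and at 1642 CPM under imeglimin and 526.4 CPM under vehicle at 3.9 mM, with log2 ratios of 2.69 and 1.64. Without alpha cells with Iapp at 1% or more, the ratios at 3.9 mM were 2.59 for Mt1 and 2.39 for Mt2. Both genes were highest in imeglimin at 3.9 mM and lowest in vehicle at 11.1 mM. In cells thinned to 3000 UMIs each, Mt1 was detected in 95.7% of imeglimin and 59.8% of vehicle alpha cells at 11.1 mM and in 99.7% and 90.8% at 3.9 mM. The median thinned cell held 9 Mt1 UMIs under imeglimin and 1 under vehicle at 11.1 mM and 17 under imeglimin and 3 under vehicle at 3.9 mM. Unthinned, the shares were 97.9% under imeglimin and 73.8% under vehicle at 11.1 mM and 100% under imeglimin and 98.4% under vehicle at 3.9 mM. Thinned endothelial cells had Mt1 in 73.0% of cells under imeglimin and 21.3% under vehicle at 11.1 mM and in 93.9% under imeglimin and 67.2% under vehicle at 3.9 mM, with median depths before thinning of 2846 UMIs under imeglimin and 5612 under vehicle at 11.1 mM, and of 4505.5 under imeglimin and 5898 under vehicle at 3.9 mM. Mt1 was thus also higher in the imeglimin endothelial cells at each glucose level, where its median per thinned cell was at most 4 UMIs.

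The promoter sequences of both metallothioneins are shown because metal-regulated transcription of these genes is textbook biology. The 250 bases before the annotated start are given 5′ to 3′ on the gene's strand from RefSeq (GRCm38.p6), with matches on either strand to the metal response core, searched as TGCACNC and TGCGCNC, in capitals.
Mt1, chr8:94178839-94179088, plus strand: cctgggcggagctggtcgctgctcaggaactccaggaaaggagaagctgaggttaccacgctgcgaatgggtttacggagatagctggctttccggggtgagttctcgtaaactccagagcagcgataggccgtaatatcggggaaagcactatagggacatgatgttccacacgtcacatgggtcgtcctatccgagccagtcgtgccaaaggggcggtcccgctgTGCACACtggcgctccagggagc
Mt2, chr8:94172368-94172617, plus strand: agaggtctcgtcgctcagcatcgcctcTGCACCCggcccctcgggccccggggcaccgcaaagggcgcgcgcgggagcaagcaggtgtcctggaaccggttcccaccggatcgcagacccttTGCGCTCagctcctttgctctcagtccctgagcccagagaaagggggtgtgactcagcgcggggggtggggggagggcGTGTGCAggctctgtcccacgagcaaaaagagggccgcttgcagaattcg
Within these windows Mt1 held 1 match, which starts 23 bases before the annotated start, and Mt2 held 3. Sequence after the annotated start was not searched, so these are not counts of all such elements of either gene. Either core was present in 21.4% of the 32851 mouse promoter windows of the same length, so a match is a description of the sequence.

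Genes of the integrated stress response were higher under imeglimin in most tested members. This response is set off when eIF2alpha is phosphorylated, for instance by amino acid shortage or mitochondrial stress, and its factor Atf4 then drives genes of amino acid synthesis and transport together with Ddit3 (CHOP). At 11.1 mM, 12 of 17 tested members were at least 1.5-fold higher under imeglimin and 1 was lower, with a median log2 ratio of 0.93 against 0.05 for all tested genes. At 3.9 mM, 21 of 24 were higher and 1 lower, with a median of 1.52 against 0.09 for all tested genes. Shares over all tested genes were 6.57% higher and 5.15% lower at 11.1 mM, and 11.2% higher and 6.9% lower at 3.9 mM. In beta cells the medians of the same list were 0.55 at 11.1 mM and 0.29 at 3.9 mM.

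Ddit3, a transcription factor of sustained stress, stood at 168.4 and 30.3 CPM in imeglimin and vehicle alpha cells at 11.1 mM and at 571.9 and 167.3 CPM at 3.9 mM. Its log2 ratios were 2.47 (2.18 to 2.78) and 1.77 (1.68 to 1.87). Imeglimin at 3.9 mM was the highest library, and vehicle at 11.1 mM the lowest. Atf4 itself stood at 174.7 CPM under imeglimin and 102.7 CPM under vehicle at 11.1 mM and at 283.1 CPM under imeglimin and 96.5 CPM under vehicle at 3.9 mM, so its messenger RNA differed less, with log2 ratios of 0.77 and 1.55. Atf5, a related factor linked to mitochondrial protein stress, stood at 83.8 CPM under imeglimin and 11.4 CPM under vehicle at 11.1 mM and at 297.5 CPM under imeglimin and 54.2 CPM under vehicle at 3.9 mM, with log2 ratios of 2.88 (2.41 to 3.38) and 2.46 (2.29 to 2.62). In beta cells Atf5 had log2 ratios of 0.67 and -0.64, on opposite sides of 0, in the same pairs of libraries.

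Enzymes of the list ran the same way. Mthfd2, of mitochondrial one-carbon metabolism, stood at 108 and 26.1 CPM in imeglimin and vehicle alpha cells at 11.1 mM and at 290.3 and 59.7 CPM at 3.9 mM. Asns, asparagine synthetase, stood at 91.3 CPM under imeglimin and 46.2 CPM under vehicle at 11.1 mM and at 211.2 CPM under imeglimin and 61.7 CPM under vehicle at 3.9 mM. Psph, the last enzyme of serine synthesis, had log2 ratios of 1.39 at 11.1 mM and 2.38 at 3.9 mM. Each of these 3 enzymes was highest in imeglimin at 3.9 mM. The translation repressor Eif4ebp1 had ratios of 1.93 and 2.32, the pseudokinase Trib3 of 3.21 and 2.05, and the stress hormone Gdf15 of 1.65 and 2.86. Chac1, which breaks down glutathione, was at 27.5 CPM under imeglimin and 1.95 CPM under vehicle at 11.1 mM and at 71.9 CPM under imeglimin and 6.25 CPM under vehicle at 3.9 mM. Atf5, Eif4ebp1, Trib3, Gdf15, Chac1 and Nupr1 were over 10 times higher in another cell class of a library at 11.1 mM, most often beta cells, and the part of those cells in the alpha ratios at 11.1 mM was not tested. Nupr1, a stress-induced chromatin factor, went the other way at 3.9 mM, with 169.9 CPM under imeglimin and 272.6 CPM under vehicle. Its log2 ratio there was -0.68, and -0.04 without alpha cells with Iapp at 1% or more.

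Summed over the whole list, the median alpha cell thinned to 3000 UMIs held 5 UMIs under imeglimin and 3 under vehicle at 11.1 mM, and 11 under imeglimin and 4 under vehicle at 3.9 mM. The 10th to 90th percentiles at 3.9 mM were 5 to 19 UMIs under imeglimin and 1 to 9 under vehicle, ranges that overlap. Median beta cells held 12 UMIs under imeglimin and 7 UMIs under vehicle at 11.1 mM and 21 UMIs under imeglimin and 24 UMIs under vehicle at 3.9 mM. Imeglimin was the higher library in alpha cells at both glucose levels, and in beta cells at 11.1 mM. Several alpha ratios at 3.9 mM were larger when cells of 1% Iapp or more were left out. The log2 ratios at 3.9 mM were then 2.86 for Ddit3, 3.55 for Atf5, 3.41 for Mthfd2 and 3.11 for Psph. They were 3.86 for Trib3, 3.56 for Eif4ebp1, 4.11 for Gdf15 and 4.61 for Chac1, the last against 3.52 in all alpha cells.

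**Figure D3:**
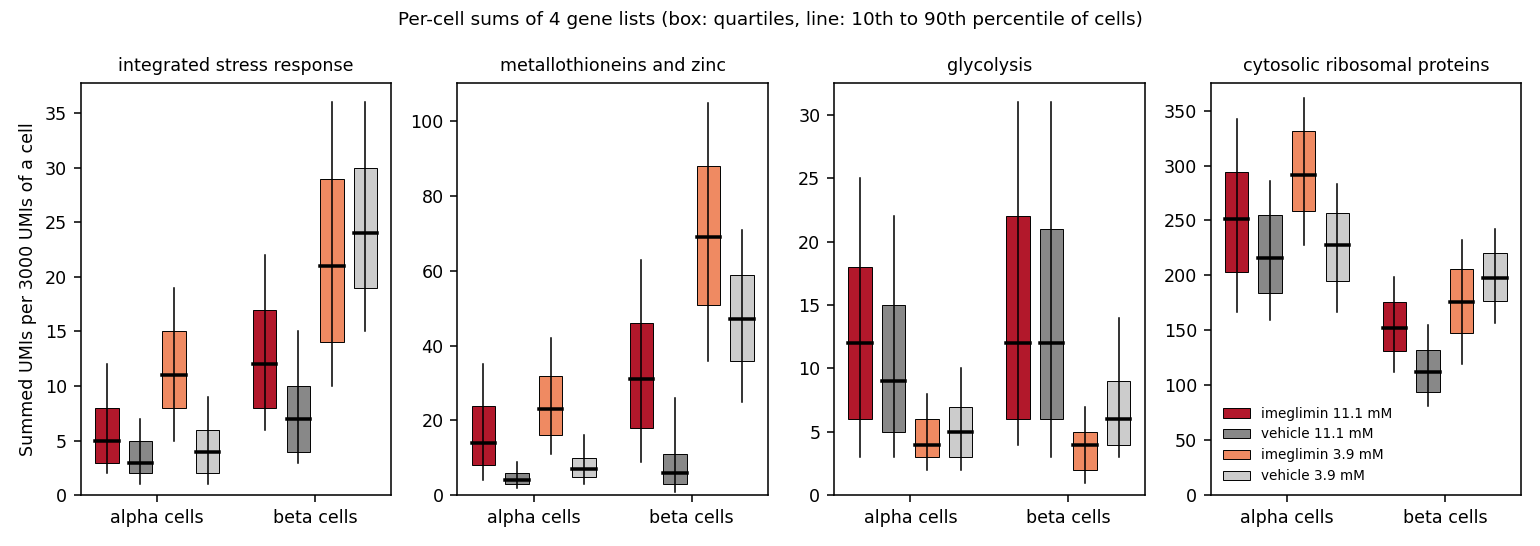
Summed UMIs of 4 gene lists per cell, each cell thinned to 3000 UMIs, for alpha and beta cells of each library; boxes show quartiles and lines the 10th to 90th percentile. Integrated stress response sums in alpha cells have medians of 5, 3, 11 and 4 in imeglimin 11.1 mM, vehicle 11.1 mM, imeglimin 3.9 mM and vehicle 3.9 mM, against 12, 7, 21 and 24 in beta cells.

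Promoters of the list were searched for the composite C/EBP-ATF element bound by Atf4 dimers, as TGATGNAA on both strands. Of 35 members, 30 had a RefSeq promoter entry, and 11 of these held a match in the 250 bases before a start, against 3.45% of all 32851 promoter windows. Ddit3, Atf4, Atf5, Trib3, Mthfd2, Psph and Gdf15, which were higher under imeglimin in the pairs above, held no match. Nupr1 held a match and had log2 ratios of 0.93 at 11.1 mM and -0.68 at 3.9 mM. The latter was -0.04 without alpha cells with Iapp at 1% or more. Whether a match goes with a higher ratio was not tested. Shown are Chac1 and Asns, which held a match and were also higher under imeglimin, with the match in capitals.
Chac1, chr2:119350992-119351241, plus strand: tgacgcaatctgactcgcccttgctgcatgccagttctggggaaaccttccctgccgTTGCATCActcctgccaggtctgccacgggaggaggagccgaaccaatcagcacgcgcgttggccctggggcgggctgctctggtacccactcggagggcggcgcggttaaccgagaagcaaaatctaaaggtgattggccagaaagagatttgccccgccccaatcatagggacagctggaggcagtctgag
Asns, chr6:7693210-7693459, minus strand: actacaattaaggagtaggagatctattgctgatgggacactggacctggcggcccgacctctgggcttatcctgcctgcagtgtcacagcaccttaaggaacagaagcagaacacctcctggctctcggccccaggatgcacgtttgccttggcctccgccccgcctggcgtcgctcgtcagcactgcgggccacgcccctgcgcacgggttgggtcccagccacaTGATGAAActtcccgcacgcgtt
The list was assembled from known members of this pathway, so the share with the element describes the list and not these libraries.

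Ribosomal protein genes were higher by small amounts at 3.9 mM. Over all tested genes, 11.2% were higher at 3.9 mM and 6.57% at 11.1 mM. At 3.9 mM, 18 of 47 tested members were at least 1.5-fold higher under imeglimin and none was lower, with a median log2 ratio of 0.51, which was 0.31 under plain CPM. At 11.1 mM, 4 of 47 were higher, a share near that over all tested genes, with a median of 0.30 (0.18 under plain CPM). Mitochondrial chaperones and proteases were higher in 5 of 11 members at 3.9 mM and in 2 of 8 at 11.1 mM, and none was lower. The mitochondrial Hsp70, Hspa9, stood at 270.8 CPM under imeglimin and 147.5 CPM under vehicle at 11.1 mM and at 513.8 CPM under imeglimin and 210.6 CPM under vehicle at 3.9 mM. The log2 ratios of Hspa9 were 0.88 and 1.29, and those of the co-chaperonin Hspe1 were 0.73 and 1.21. All 11 tested mitochondrially encoded genes, of 13 on the list, stayed within 1.5-fold in all 4 comparisons on the TMM scale. The lowest log2 ratio was -0.576 with imeglimin at 3.9 mM and the highest 0.581 between glucose levels under imeglimin, both near that limit. Under plain CPM the list median with imeglimin at 3.9 mM moved from -0.21 to -0.41, so this is not read beyond the TMM scale. Of the nuclear genes of oxidative phosphorylation, 6 of 65 were higher at 11.1 mM and 4 of 66 at 3.9 mM, shares near or below those over all tested genes. The unfolded protein response list had 0 of 25 members at 1.5-fold at 11.1 mM, and 3 higher and 1 lower of 25 at 3.9 mM.

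Alpha-cell transcription factors were split, and Irx1 and Irx2 held their level. Irx2 stood at 185.5 CPM under imeglimin and 185.6 CPM under vehicle at 11.1 mM and at 159.6 CPM under imeglimin and 157.7 CPM under vehicle at 3.9 mM, and Irx1 lay between 107.4 and 136.9 CPM in all libraries. Rfx6 and Neurod1, endocrine factors shared with beta cells, had log2 ratios of -0.95 and -0.81 at 3.9 mM and of -0.58 and -0.43 at 11.1 mM. Of the whole list, 0 of 11 tested factors were higher and 1 lower at 11.1 mM, and 2 of 13 were higher and 4 lower at 3.9 mM. Shares over all tested genes were 6.57% higher and 5.15% lower at 11.1 mM, and 11.2% higher and 6.9% lower at 3.9 mM. The 1 lower at 11.1 mM and the 2 higher at 3.9 mM were near those shares. The higher ones at 3.9 mM, Nkx6-1 (0.73) and Insm1 (0.60), fell short of 1.5-fold under plain CPM (0.53 and 0.40).

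Gcg itself, which the rule used, stood at 177289 CPM under imeglimin and 170168 CPM under vehicle at 11.1 mM and at 164318 CPM under imeglimin and 145887 CPM under vehicle at 3.9 mM. Its log2 ratios of 0.06 and 0.17 changed sign under plain CPM (-0.06 and -0.03), so no direction is read. Ttr, a further alpha marker, stood at 16751 CPM under imeglimin and 11722 CPM under vehicle at 11.1 mM and at 14912 CPM under imeglimin and 9520 CPM under vehicle at 3.9 mM. Its log2 ratios of 0.52 and 0.65 became 0.39 and 0.45 under plain CPM, so it passed 1.5-fold only on the TMM scale and only at 3.9 mM. The processing enzyme Pcsk2 had log2 ratios of 0.04 and -0.30, and Chga, a granule protein, of 0.13 and -0.08. Pcsk1, which cuts proglucagon to GLP-1, was at 4.79 CPM under imeglimin and 3.90 CPM under vehicle at 11.1 mM and at 12.4 CPM under imeglimin and 12.7 CPM under vehicle at 3.9 mM, under the filter in every library.

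**Figure D4:**
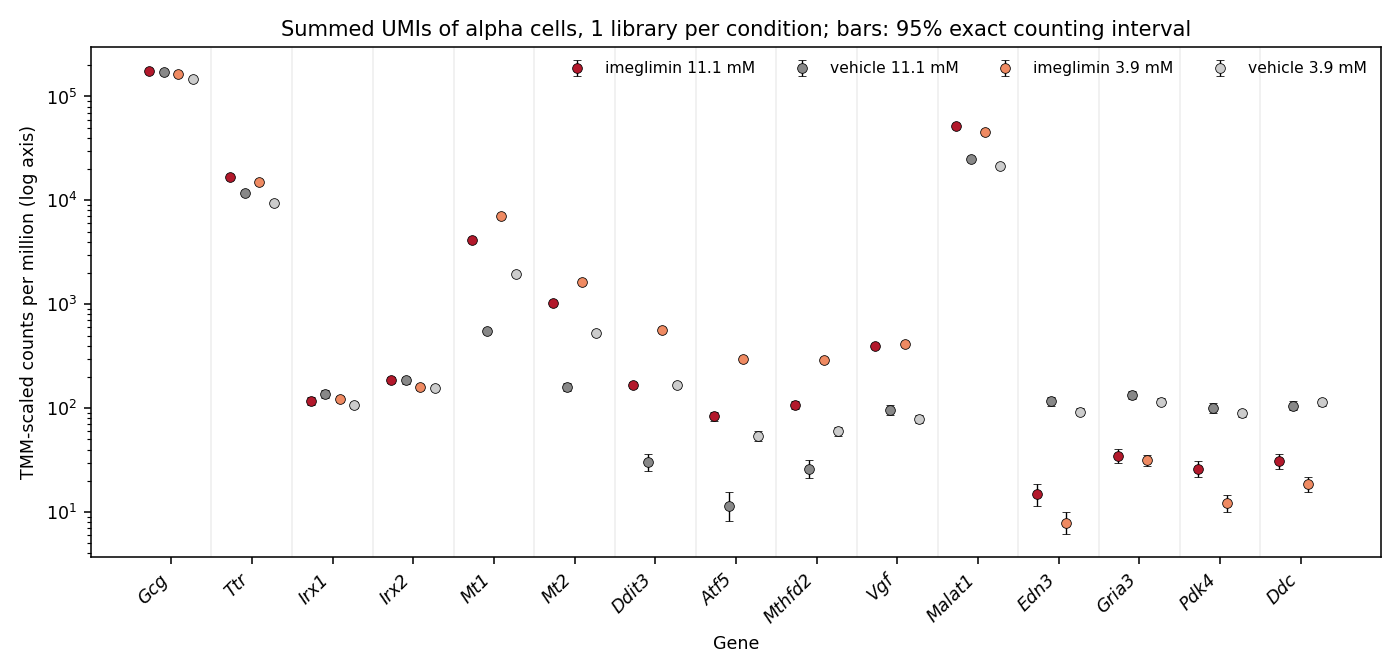
TMM-scaled CPM on a log axis for 15 genes in the summed alpha cells of each library, with 95% exact counting intervals. Gcg, Irx1 and Irx2 are level across libraries, while Edn3, Gria3, Pdk4 and Ddc are lower, and Mt1, Mt2, Ddit3, Atf5, Mthfd2, Vgf and Malat1 higher, in both imeglimin libraries than in the vehicle library of the same glucose level.

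Among granule proteins, Vgf and Scg3 stood out. Vgf, the precursor of several neuropeptides, stood at 394 and 96.8 CPM in imeglimin and vehicle alpha cells at 11.1 mM and at 419.2 and 78.3 CPM at 3.9 mM, so the values depended little on glucose. Its log2 ratios were 2.02 (1.86 to 2.19) and 2.42 (2.29 to 2.56). In thinned cells Vgf was detected in 59.5% of alpha cells under imeglimin and 21.5% under vehicle at 11.1 mM and in 60.6% under imeglimin and 17.5% under vehicle at 3.9 mM, against at most 1.12% of endothelial cells. Unthinned shares were 75.1% under imeglimin and 34.5% under vehicle at 11.1 mM, and 80.1% under imeglimin and 41.5% under vehicle at 3.9 mM. Scg3, a sorting receptor for granule cargo, stood at 1060 CPM under imeglimin and 528 CPM under vehicle at 11.1 mM and at 958 CPM under imeglimin and 520 CPM under vehicle at 3.9 mM. Of 14 tested members of the processing and granule list, 4 were higher and 0 lower at 11.1 mM, and 2 higher and 2 lower at 3.9 mM. Of all tested genes, 6.57% were higher and 5.15% lower at 11.1 mM, and 11.2% higher and 6.9% lower at 3.9 mM. The list counts at 3.9 mM were thus near the shares over all tested genes.

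Exocytosis and excitability genes included several that were lower. Over all tested genes, 5.15% were lower at 11.1 mM and 6.90% at 3.9 mM. Of 11 tested exocytosis genes, 1 was higher and 1 lower at 11.1 mM, and 0 were higher and 5 lower at 3.9 mM, where the median was -0.46. They include the vesicle-priming factor Cadps, with log2 ratios of -0.89 at 11.1 mM and -0.87 at 3.9 mM, and the vesicle GTPase Rab27a, with -0.44 and -1.06. Of 11 tested channel genes, 0 were higher and 4 lower at each glucose level. The P/Q-type calcium channel Cacna1a, which carries calcium current for glucagon release, stood at 34.2 CPM under imeglimin and 73.2 CPM under vehicle at 11.1 mM and at 29.8 CPM under imeglimin and 62.5 CPM under vehicle at 3.9 mM. The sodium channel Scn3a had log2 ratios of -0.80 and -1.28, and the potassium channel Kcnk16 had -0.60 and -1.33. Gria3, a subunit of the AMPA glutamate receptor, stood at 35.0 CPM under imeglimin and 135.2 CPM under vehicle at 11.1 mM and at 31.5 CPM under imeglimin and 115.8 CPM under vehicle at 3.9 mM, with log2 ratios of -1.95 and -1.88.

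Amino acid transport, through which alpha cells sense the nutrients that drive glucagon release, differed in both directions. The arginine transporter Slc7a2 stood at 364 CPM under imeglimin and 625.5 CPM under vehicle at 11.1 mM and at 242.6 CPM under imeglimin and 523.9 CPM under vehicle at 3.9 mM, and the glutamine transporter Slc38a5 at 21.7 CPM under imeglimin and 61.2 CPM under vehicle at 11.1 mM and at 21.4 CPM under imeglimin and 50.3 CPM under vehicle at 3.9 mM. Both were lower in each imeglimin library. Slc38a2, a transporter induced by amino acid shortage, was at 145.5 CPM under imeglimin and 76.0 CPM under vehicle at 11.1 mM and at 165 CPM under imeglimin and 70.7 CPM under vehicle at 3.9 mM, higher in each imeglimin library. Of the tested members of the list, 1 of 6 was higher and 2 lower at 11.1 mM, and 4 of 8 were higher and 2 lower at 3.9 mM. The shares over all tested genes were 6.57% higher and 5.15% lower at 11.1 mM, and 11.2% and 6.9% at 3.9 mM. The somatostatin receptor Sstr2 stood at 8.76 CPM under imeglimin and 22.3 CPM under vehicle at 11.1 mM and at 9.18 CPM under imeglimin and 19.4 CPM under vehicle at 3.9 mM, and the vasopressin receptor Avpr1b at 20.6 CPM under imeglimin and 32.8 CPM under vehicle at 11.1 mM and at 9.99 CPM under imeglimin and 29.7 CPM under vehicle at 3.9 mM. Both were lower under imeglimin but stayed under 50 CPM in every library.

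Several genes of modest level had low ratios at both glucose levels. At 11.1 mM alone, Hspa1a (-3.13) and Hspa1b (-2.78), inducible heat shock proteins, also had low ratios, and they stayed under 50 CPM in both libraries at 3.9 mM. For each of them the top cell held a large part of the UMIs in vehicle alpha cells at 11.1 mM, as given below. The part of that cell in these ratios was not tested. Edn3, endothelin 3, stood at 14.8 and 116.6 CPM in imeglimin and vehicle alpha cells at 11.1 mM and at 7.90 and 92.7 CPM at 3.9 mM. The log2 ratios were -2.98 (-3.36 to -2.61) and -3.55 (-3.94 to -3.19). In thinned cells Edn3 was detected in 4.22% of alpha cells under imeglimin and 30.7% under vehicle at 11.1 mM and in 2.65% under imeglimin and 28.7% under vehicle at 3.9 mM, and in at most 0.0389% of thinned beta cells, whose median depth before thinning was 9552 to 13010 UMIs. Unthinned shares were 8.20% under imeglimin and 43.2% under vehicle at 11.1 mM and 5.73% under imeglimin and 53.2% under vehicle at 3.9 mM. Pdk4, a kinase that switches off pyruvate dehydrogenase, stood at 26.3 CPM under imeglimin and 100.2 CPM under vehicle at 11.1 mM and at 12.2 CPM under imeglimin and 89.6 CPM under vehicle at 3.9 mM. Ddc, which makes dopamine and serotonin, stood at 31.1 CPM under imeglimin and 105.7 CPM under vehicle at 11.1 mM and at 18.5 CPM under imeglimin and 114.1 CPM under vehicle at 3.9 mM. Fbp1, a gluconeogenic enzyme, had log2 ratios of -2.09 and -2.50, and the kinase Mapk15 of -2.34 and -2.83.

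Long RNAs that stay in the nucleus were higher under imeglimin in 2 of 4 tested members at each glucose level. Of all tested genes, 6.57% were higher at 11.1 mM and 11.2% at 3.9 mM. Malat1 stood at 52009 and 24945 CPM in imeglimin and vehicle alpha cells at 11.1 mM and at 45542 and 21568 CPM at 3.9 mM, with log2 ratios of 1.06 and 1.08. Beta cells had 0.90 and 1.13. Neat1, which builds nuclear paraspeckles, stood at 420.2 CPM under imeglimin and 123.8 CPM under vehicle at 11.1 mM and at 351.2 CPM under imeglimin and 110.6 CPM under vehicle at 3.9 mM, with ratios of 1.76 and 1.67. Spp1, osteopontin, stood at 2368 CPM under imeglimin and 537.5 CPM under vehicle at 11.1 mM and at 1502 CPM under imeglimin and 636.3 CPM under vehicle at 3.9 mM. Spp1 is also on the duct marker list, which summed to 2487.6 and 840.7 plain CPM in imeglimin and vehicle alpha cells at 11.1 mM and to 1569.6 and 943.9 in imeglimin and vehicle alpha cells at 3.9 mM, with Cftr at 0 in all libraries. Lbh, a cofactor of transcription, and Rhou, a small GTPase, had ratios of 2.33 and 1.77 and of 1.61 and 1.92.

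**Figure D5:**
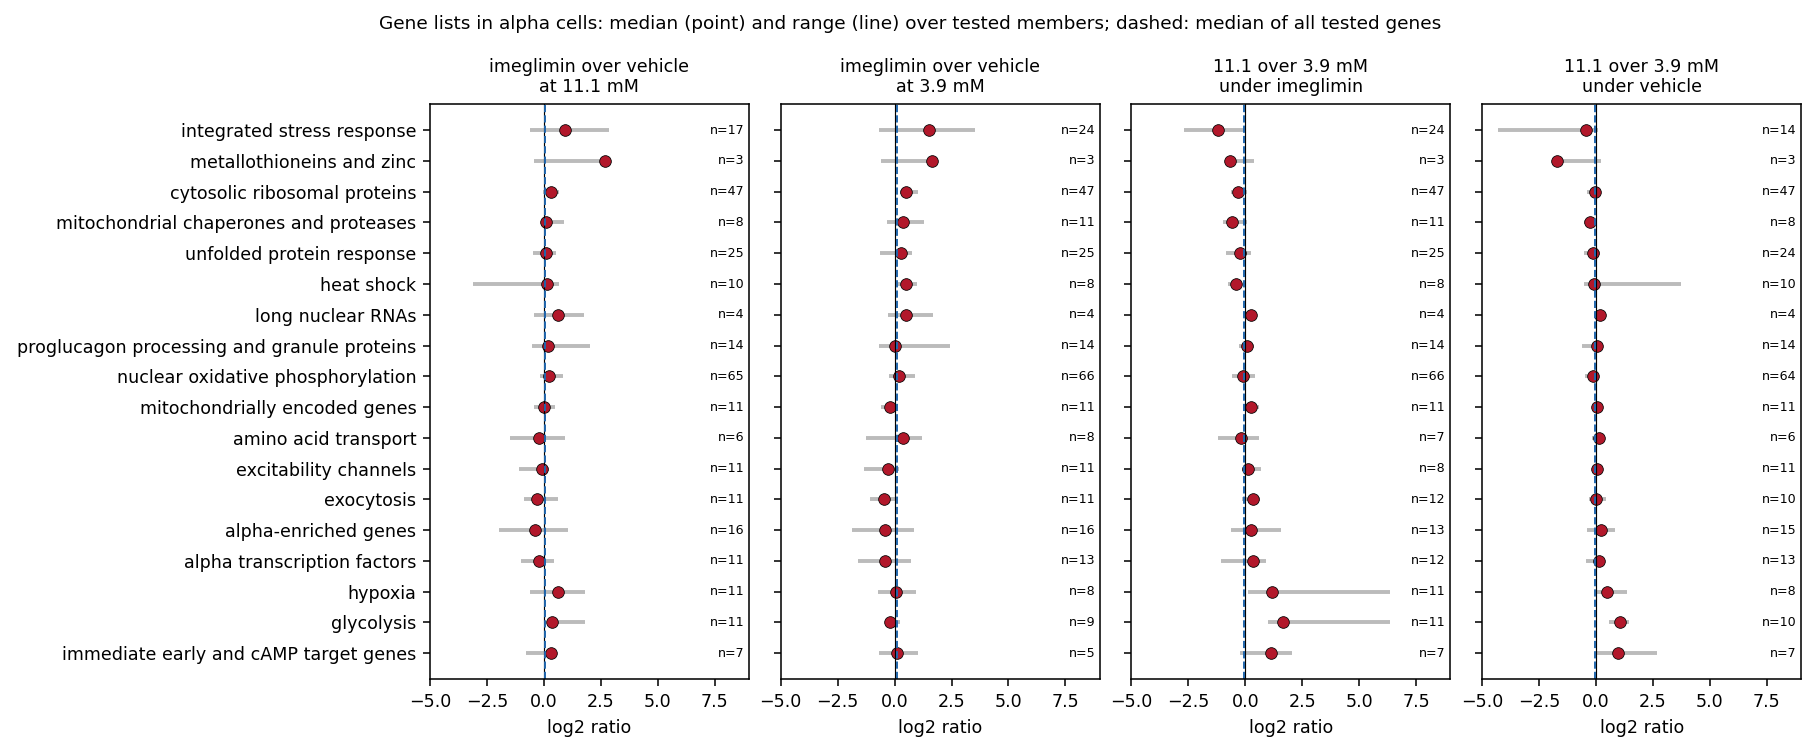
Median (point) and range (line) of the log2 ratios of the tested members of 18 gene lists in alpha cells, for the imeglimin comparisons at 11.1 and 3.9 mM and the glucose comparisons under imeglimin and under vehicle; the dashed line is the median of all tested genes. The integrated stress response list is at 0.93 and 1.52 with imeglimin, and glycolysis is at 1.66 and 1.04 between glucose levels.

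Glucose alone, compared under vehicle, set few alpha-cell genes apart. The 35 higher genes were 1.11% of those tested, and 9 of 10 tested glycolysis genes were at least 1.5-fold higher at 11.1 mM, with a median log2 ratio of 1.04. Under imeglimin, where 2.6% of all tested genes were higher, 11 of 11 glycolysis genes were higher with a median of 1.66. The 35 also hold the acinar genes Try4, Ctrb1 and Prss2, and for each of these the top cell, not checked to be the same one, held 95.5%, 92.4% and 90.8% of the UMIs in vehicle alpha cells at 11.1 mM. They hold the heat shock genes Hspa1a and Hspa1b too, for which the top cell held 60.6% and 42.6%. Pgk1, phosphoglycerate kinase, stood at 366.7 and 78.0 CPM at 11.1 and 3.9 mM under imeglimin and at 246.5 and 90.5 CPM at 11.1 and 3.9 mM under vehicle. Its log2 ratios of 11.1 over 3.9 mM were 2.23 (2.10 to 2.36) and 1.45 (1.29 to 1.60). Triose phosphate isomerase Tpi1 had 2.01 and 1.45, and the phosphofructokinase Pfkl 1.99 and 1.36. Beta cells had similar list medians of 2.11 under imeglimin and 1.34 under vehicle. Thinned alpha cells held a median of 12 and 4 summed glycolysis UMIs at 11.1 and 3.9 mM under imeglimin, and of 9 and 5 under vehicle.

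The hypoxia list had 9 of 11 tested members higher at 11.1 mM under imeglimin and 3 of 8 under vehicle. Of all tested genes, 2.6% were higher under imeglimin and 1.11% under vehicle. This list overlaps the glycolysis list, so the counts of these lists are not independent. Bnip3, a mitophagy receptor, stood at 272.5 and 62.5 CPM at 11.1 and 3.9 mM under imeglimin, and at 146.1 and 57.1 CPM under vehicle. Ankrd37 stood at 67.5 and 6.28 CPM under imeglimin and at 43.4 and 16.9 CPM under vehicle. Both were higher at 11.1 mM with either treatment. At 11.1 mM, 7 of 11 hypoxia genes were also higher under imeglimin than under vehicle and 1 was lower, with a median of 0.64 (0.51 under plain CPM). In that comparison 6.57% of all tested genes were higher and 5.15% lower. Oxygen in the cultures is not given in the sources used here.

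Immediate early genes were higher at 11.1 mM in the alpha cells, in 5 of 7 tested members under imeglimin and 6 of 7 under vehicle. The shares over all tested genes were 2.6% under imeglimin and 1.11% under vehicle. Fos stood at 85.3 and 20.6 CPM at 11.1 and 3.9 mM under imeglimin and at 96.0 and 15.1 CPM under vehicle. Egr1 stood at 178.2 and 64.0 CPM under imeglimin and at 308.6 and 102.3 CPM under vehicle. These genes also answer to tissue dispersal, and the part of handling was not tested. Endothelial cells had Fos in 21.4% and 12.7% of thinned cells at 11.1 and 3.9 mM under imeglimin and in 29.9% and 13.6% under vehicle.

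The stress genes were lower at 11.1 than at 3.9 mM. Of 24 tested integrated stress response genes, 22 were lower at 11.1 mM under imeglimin, with a median of -1.20. Under vehicle 5 of 14 were lower, with a median of -0.43. The shares lower over all tested genes were 4.56% under imeglimin and 0.954% under vehicle. Under vehicle the values rested in part on the Iapp-rich cells. Ddit3 had a log2 ratio of 11.1 over 3.9 mM under vehicle of -2.46, and of -1.12 without cells of 1% Iapp or more. Mthfd2 had -1.19 and -0.18, and Trib3 -3.06 and -0.999, with and without those cells. The median of the list under vehicle became -0.18 without them. Of 13 tested alpha-cell factors, 0 reached 1.5-fold between glucose levels under vehicle, which is near the 2.07% of all tested genes that did. Under imeglimin 2 of 12 were higher and 2 lower at 11.1 mM, against 2.6% and 4.56% of all tested genes.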

How the data were processed

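Single-cell 3' RNA-seq (10x Genomics, v3.1 chemistry) was deposited as filtered matrices of raw UMI counts, 1 per library. The authors made these counts with Cell Ranger 6.0.2 and the mm10 genome, per the submitters' processing notes. Whether introns were counted is not given in the sources used here. Groups came from the labels, and no sample was left out.

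UMI counts were summed over the alpha cells of each library, scaled by TMM factors (edgeR 4.0.16, R 4.3.3) and given as CPM (UMIs of a gene scaled to a fixed total per library). Log2 ratios carry 95% exact (Clopper-Pearson) counting intervals, with a count of 0 replaced by 3 UMIs. Genes at 50 CPM or more in either library were compared, and 1.5-fold is a size, not a test. The calculation was tested on simulated data. No doublet caller was run. The hormone limits remove barcodes with a second hormone, and alternatives left out cells over 2 times the median UMIs or with Iapp at 1% or more, the last chosen after seeing the data. Beta, endothelial and other classes were set by hormone or marker shares. UMIs in a droplet can come from free RNA.

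Named genes were the 8 highest and 8 lowest ratios of each imeglimin comparison, the 6 highest and 6 lowest of each glucose comparison, the 8 highest and 8 lowest of those called at both glucose levels, a set of alpha-cell and stress genes, and up to 2 members at each end of each list. Genes picked by highest or lowest ratio had to keep their direction under plain CPM and per-cell means. They also could not be over 10 times higher in another class. The set of alpha-cell and stress genes and the list members were named without these limits. Other genes were named after their values were seen. The alpha rule, lists and named-gene rule were chosen with earlier results of these data known. Other scalings, thinning, stricter rules and filters were tried. Some genes are not reported here.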

Additional observations from a re-analysis of the deposited data

Results flagged for a closer look

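Hmox1, heme oxygenase 1, an enzyme of heme breakdown, lay on opposite sides of 0 in the imeglimin comparisons of alpha cells. Its log2 ratio of imeglimin over vehicle was -1.58 at 11.1 mM, where it stood at 21.9 CPM under imeglimin and 65.4 CPM under vehicle, and 1.71 at 3.9 mM, where it stood at 83.2 CPM under imeglimin and 25.4 CPM under vehicle. Without alpha cells with Iapp at 1% or more, the Hmox1 ratio at 3.9 mM was 2.34. The difference between the glucose levels was not tested, since each condition was 1 library. Hmox1 was over 10 times higher in another cell class of these libraries, and a single cell held 39% of its UMIs in vehicle alpha cells at 11.1 mM. The part of those cells in the result was not tested.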

How the results depend on the processing

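No paired analysis was possible because each condition was a single library. Counts below are genes at least 1.5-fold higher, then lower. With plain CPM, 132 genes were higher at 11.1 mM with imeglimin, 179 were higher and 448 lower at 3.9 mM, and 76 and 195 at both. With totals that left out hormone and mitochondrial genes, they were 117 and 285, 160 and 501, and 69 and 222, and 91 genes were lower between glucose levels under imeglimin. With genes at 20 CPM or more, they were 418 and 410 at 11.1 mM, 662 and 534 at 3.9 mM, 239 and 266 at both, 177 and 292 between glucose levels under imeglimin, and 83 and 102 under vehicle. With at least 3 UMIs as the only filter, they were 1775 and 1940, 2216 and 2593, 827 and 1081, 1755 and 1583, and 1296 and 1500 in the same order. The 30 genes lower at 11.1 mM under vehicle were 15 with per-cell means, 13 under the stricter alpha rule, 15 without cells of high UMIs and 11 without Iapp-rich cells. Ins2 under vehicle, with a log2 ratio of -1.04 between glucose levels, became 0.0034 under the stricter rule and 0.37 without Iapp-rich cells.

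The alpha share under the stricter rule was 8.24% in imeglimin and 6.41% in vehicle at 11.1 mM, and 9.02% in imeglimin and 6.67% in vehicle at 3.9 mM. Without Iapp-rich cells it was 7.82% in imeglimin and 7.01% in vehicle at 11.1 mM, with overlapping intervals, and 9.75% in imeglimin and 7.24% in vehicle at 3.9 mM. In imeglimin at 3.9 mM it was 13.3% at a mitochondrial limit of 10% and 14.2% among barcodes of 3000 UMIs or more. Among 348 named-gene ratios and list medians, a gene ratio counted as moved beyond its counting interval and a list median beyond a fixed log2 shift. By these limits 162 moved without hormone genes, 142 with plain CPM, 103 with thinning and 5 with size factors. The cause was not tested. With 1 library per condition, differences between cultures cannot be told apart from those of treatment or glucose.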
